A study of Mus musculus with 6 samples.

Results

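The 39 genes described here encode proteins that license origins of DNA replication, fire them and run the replication fork. They were taken by symbol from a table of 23718 genes, and all 39 were listed and were among the 15391 genes that passed a filter on low values, a mean of at least 1 over the 6 libraries. By step they comprised 11 licensing genes, 7 firing genes, 6 polymerase and primase genes, 7 genes for the sliding clamp, its loader and single-strand binding, 3 for Okazaki fragment processing, 3 for fork protection and 2 for chromatin assembly.

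The values came from RNA sequencing of 2 regions of the mouse incisor, a tooth that keeps growing throughout life. Mesenchymal stem cells (MSC, 3 samples) were taken from Gli1-CreER;tdT mice and transit amplifying cells (TAC, 3 samples) from Axin2-CreER;tdT mice, all 1 month old. The labels name the C57BL/6 strain, while the methods speak of a mixed background. In both groups a tamoxifen-inducible Cre switched on a tdTomato reporter, tamoxifen was given before collection, and cells were cut out of frozen sections under a microscope with a laser (laser capture microdissection). The Gli1 and Axin2 drivers mark the cells that transcribe these genes at the time of tamoxifen, so the groups differ in driver as well as in region. The methods give 3 mice per group, and the labels do not tie a library to a mouse, so the tests measure the spread between these samples.

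Before a cell copies its DNA, the origin recognition complex with Cdc6 and Cdt1 loads the Mcm2-7 helicase ring onto origins, a step called licensing that geminin blocks once replication has begun. In S phase Cdc45 and the GINS complex join the ring to form the active helicase, polymerase alpha and primase lay down primers, polymerases delta and epsilon extend them on the Pcna clamp, and Fen1 and ligase 1 join the lagging strand fragments. Many of these genes are transcribed under E2F factors as cells enter the cycle. In the incisor, slowly cycling stem cells near the cervical loop give rise to rapidly dividing transit amplifying cells, which then differentiate into odontoblasts and pulp cells.

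The deposited values, called normalised values below, were estimated reads plus 1 divided by a size factor for each library, and were not divided by gene length. Replicates 1 and 2 of both groups rested on 20203159 to 25567244 estimated reads, MSC replicate 3 on 59793645 and TAC replicate 3 on 108156380. The share of listed genes at the lowest value, that is with no read, was 42.6% in MSC replicate 3, 27.8% in TAC replicate 3 and between 6.38% and 7.88% in the other 4 libraries. Libraries numbered 3 therefore stood apart from those numbered 1 and 2, and the main results are given below for each set. Gli1, the driver of the MSC group, was higher in MSC than in TAC at each replicate number (256 and 153, 245 and 141, 422 and 396), and its groups overlapped over all 6 libraries, while it did not pass the adjusted threshold with or without the replicate block. Axin2 ranged from 12.008 to 58.3 in MSC and from 34.1 to 63.9 in TAC. All 10 markers of dental mesenchyme had reads in all libraries, apart from Barx1 in MSC replicate 3. Their summed values were 786 to 937 in MSC and 609 to 652 in TAC, with a median log2 fold change of TAC over MSC of -0.51. Pax9, Lhx8, Dlx1 and Prrx1 were higher in all MSC than in all TAC libraries, and Msx1 and Msx2 were the reverse.

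Markers of other cell types differed along with the groups and the library sets. The 7 smooth muscle and pericyte markers were all higher in all 3 MSC libraries than in all 3 TAC libraries, with summed values of 905 to 1540 in MSC and 153 to 200 in TAC, and Cnn1 had no read in TAC replicate 3. The summed value of the 9 dental epithelium markers was 3662, 3600.4 and 299.7 in the MSC libraries by replicate number and 2147 to 3344 in TAC, most of it from the enamel genes Amelx, Ambn and Enam. Of these 9, Krt5, Krt14, Epcam and Cdh1 were higher in all TAC than in all MSC libraries and 0 were so in MSC, with a median log2 fold change of 0.94 over the 8 tested, in the same direction as the replication genes. In replicates 1 and 2 the log2 fold changes were 0.80, 0.63, 0.97 and 0.63 for Krt5, Krt14, Epcam and Cdh1. They were 0.30 for Trp63, 0.03 for Ambn, -0.07 for Enam and -0.21 for Amelx. Epcam, Cdh1, Trp63 and Sox2 had no read in MSC replicate 3. The 7 odontoblast markers summed to 15450, 15406 and 2495 in the MSC libraries and to between 11802 and 16867 in TAC, with Dmp1 and Ibsp at no read in MSC replicate 3. Endothelium markers summed to between 144 and 243 in MSC and between 72.2 and 90.8 in TAC, and 3 of 6 were higher in MSC at an unadjusted p under 0.05. Schwann cell markers summed to 20.2 to 43.2 in MSC and 6.09 to 19.2 in TAC, and 2 of 4 tested were higher in all MSC libraries. Macrophage markers summed to 58.8 to 117 in MSC and 34.2 to 92.9 in TAC, and 2 of 6 were higher in all MSC libraries. Red cell markers summed to 29.2 to 36.8 in MSC and 28.4 to 35.8 in TAC. The part of these cell types in the differences described below was not tested, and in bulk RNA fewer cells of a type and less RNA per cell cannot be told apart.

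The comparison of TAC with MSC asks how far the replication genes differ between the dividing progeny and the stem cells. The normalised values of the 39 genes summed to 426, 421 and 428 in MSC and to 1134, 1123 and 937 in TAC, where values given in a row of 3 stand here and below for replicates 1, 2 and 3 in that order. The sums of the groups were thus well apart, and in MSC the sum was almost the same in replicate 3 as in replicates 1 and 2, although the single genes differed widely between them. The third quartile over all listed genes was 15.6 in every library, so the match between these sums holds under that scaling. As a share of all estimated reads, the 39 genes took 0.0727%, 0.0717% and 0.107% in MSC and 0.202%, 0.198% and 0.228% in TAC, so that by this measure MSC replicate 3 was above the other MSC libraries and below all TAC libraries. Protein-coding genes took 68.8%, 68.6% and 90.7% of the estimated reads in MSC and 72.6%, 72.2% and 93.3% in TAC. The order of libraries within a group by this measure thus also depends on their protein-coding share. The log2 fold change of TAC over MSC, on the log2(value + 1) scale, was above 0 for 39 of 39 genes and ranged from 0.29 for Gins3 to 2.69 for Lig1, with a median of 1.27, where 51.5% of all genes tested were above 0 with a median of 0.03.

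No gene of the 39 passed the adjusted threshold of 0.05 in limma, nor in limma voom on the recovered reads, where 6 of all genes tested (0.039%) passed it in limma as higher in TAC. At an unadjusted p under 0.05, 20 of the 39 were higher in TAC and 0 were lower, beside 5.42% of all genes tested that were higher in TAC, and voom gave 22, beside 13.3% of all genes. The 3 TAC values lay above the 3 MSC values for 27 of the 39 genes, against 12.3% of all genes. With the replicate number as a block, 1 gene passed the adjusted threshold, Mcm2 with an adjusted p of 0.0489, where 0.604% of all genes passed as higher in TAC, and 26 passed the unadjusted one, where 9.43% of all genes did. The 6 genes that the block added to the unadjusted count were Prim1, Pold1, Pole, Pcna, Lig1 and Clspn. Single libraries moved these counts: without MSC replicate 3, 7 genes passed the adjusted threshold (Mcm5, Mcm7, Pcna, Fen1, Wdhd1, Timeless and Chaf1b) and 31 the unadjusted one, beside 0.612% and 8.62% of all genes, and without TAC replicate 1 or TAC replicate 2 the unadjusted count was 12, beside 2.61% and 2.64%.

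**Figure D1:**
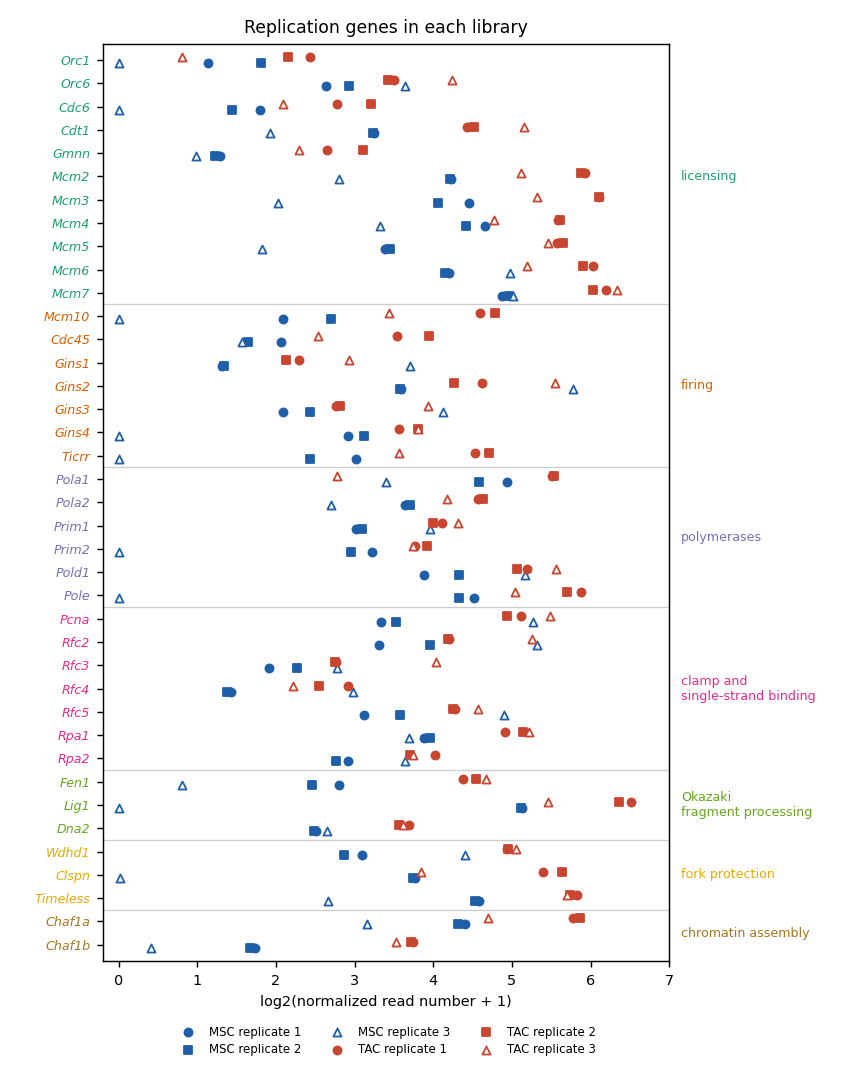
Normalised value of each of the 39 genes in the 6 libraries, as log2(value + 1) on the horizontal axis, grouped by step, with MSC in blue, TAC in red and replicate 3 as open triangles. In 27 genes the 3 TAC points lie to the right of the 3 MSC points, and 8 genes have no read in MSC replicate 3 and sit at 0.

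**Figure D2:**
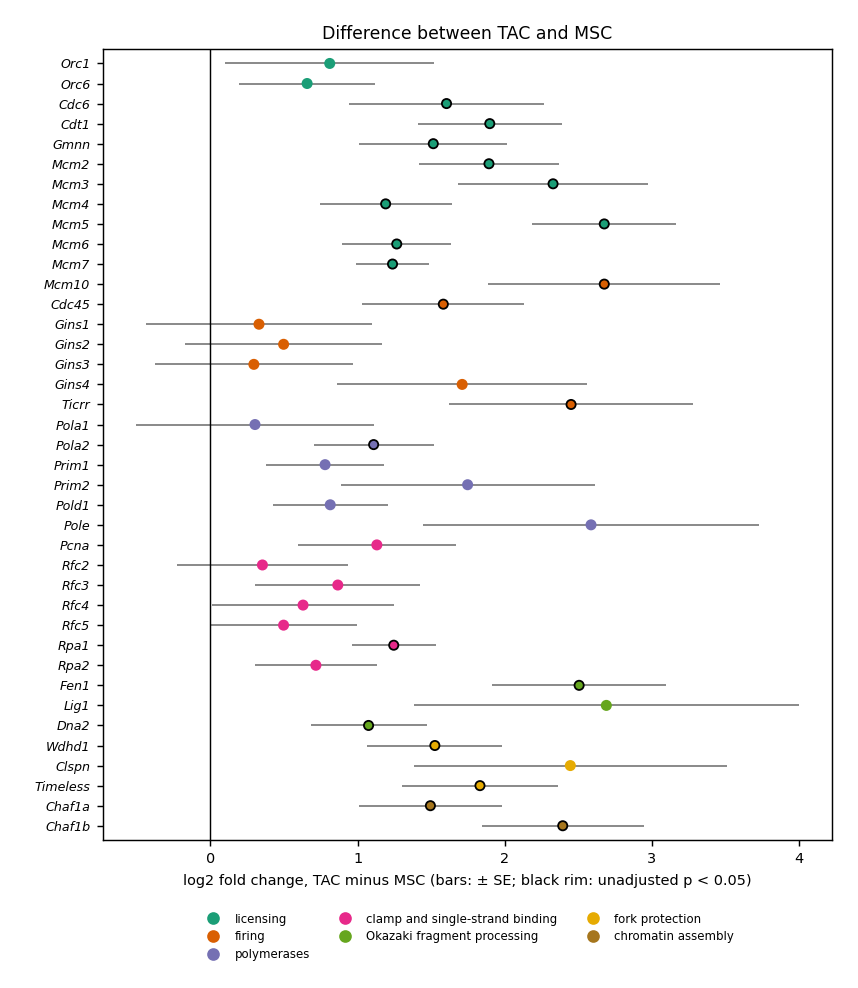
Log2 fold change of TAC over MSC for each gene on the log2(value + 1) scale, with bars showing 1 standard error from limma to each side, colours showing the step and black rims marking the 20 genes with an unadjusted p under 0.05. All 39 lie above 0, from 0.29 for Gins3 to 2.69 for Lig1.

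Licensing genes were higher in TAC with a median log2 fold change of 1.51 (1.37 in replicates 1 and 2, 1.45 in replicate 3), and 9 of 11 had an unadjusted p under 0.05, none of them past the adjusted threshold in limma without the replicate block. With the block 1 of them, Mcm2, passed it. Mcm5, a subunit of the helicase ring, had the largest difference of the step. Its normalised values were 9.49, 9.88 and 2.53 in MSC and 46.7, 49.2 and 43.0 in TAC. The TAC libraries were close to one another and all lay far above the highest MSC library. The log2 fold change of Mcm5 was 2.68 with an SE of 0.49, and its adjusted p of 0.0909 in limma was the lowest of the 39 genes.

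The other helicase subunits shared the direction, and the 3 TAC values of each of the 6 subunits lay above its 3 MSC values. Mcm7 was the most even between replicates, with 28.4, 30.1 and 31.3 in MSC and 72.6, 64.4 and 79.6 in TAC, a log2 fold change of 1.24 with an SE of 0.25 and an adjusted p of 0.109. Mcm2 gave 17.7, 17.5 and 5.98 in MSC and 59.7, 57.7 and 33.8 in TAC. Its log2 fold change was 1.89 with an SE of 0.48, and its adjusted p was 0.179 in limma and 0.0489 with the replicate block. Mcm3 gave 20.8, 15.7 and 3.09 in MSC and 67.9, 67.9 and 38.97 in TAC, so that its MSC values were spread more widely than those of Mcm7. Mcm4 gave 24.3, 20.3 and 9.01 in MSC and 46.8, 48.1 and 26.3 in TAC, where TAC replicate 3 lay just above MSC replicate 1. Mcm6 gave 17.4, 16.7 and 30.6 in MSC and 64.6, 58.7 and 35.6 in TAC, and in replicate 3 the groups differed little.

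The loading factors and their inhibitor showed the same order of groups. Cdt1, which brings the ring to the origin, gave 8.47, 8.403 and 2.81 in MSC and 20.6, 21.9 and 34.5 in TAC, with no overlap. Cdc6, the loading ATPase, gave 2.48 and 1.71 in MSC replicates 1 and 2, had no read in MSC replicate 3, and gave 5.82, 8.22 and 3.24 in TAC. Gmnn, which encodes geminin, the inhibitor of Cdt1, gave 1.44, 1.33 and 0.979 in MSC and 5.25, 7.58 and 3.90 in TAC, also with no overlap.

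The origin recognition subunits overlapped between groups. Orc6 gave 5.20, 6.61 and 11.4 in MSC and 10.4, 9.73 and 17.8 in TAC, where MSC replicate 3 lay above TAC replicates 1 and 2. Its log2 fold change of 0.66 with an SE of 0.46 was the smallest of the step, with an adjusted p of 0.646. It was 0.40 to 0.94 when single libraries were left out. That of Orc1, 0.81 over all libraries, was then 0.32 to 1.305. Orc1 gave 1.19 and 2.52 in MSC replicates 1 and 2, no read in MSC replicate 3, and 4.38, 3.45 and 0.751 in TAC, so that TAC replicate 3 lay below both MSC libraries that had reads.

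Because longer transcripts collect more reads, levels were compared between helicase subunits only after division by transcript length in kilobases. The ring holds 1 copy of each of its 6 subunits. In TAC the mean value per kilobase ran from 11.3 for Mcm4 to 24.4 for Mcm7, a 2.16-fold range. In MSC it ran from 2.16 for Mcm5 to 10.1 for Mcm7, a 4.68-fold range, with 3.42, 3.48 and 14.1 in replicates 1, 2 and 3. The range within a library was thus wider in MSC replicate 3 than in the other libraries, and narrower in TAC replicates 1 and 2, at 1.88 and 1.67, than in MSC replicates 1 and 2. TAC replicate 3 gave 3.66, within the values of the MSC libraries.

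**Figure D3:**
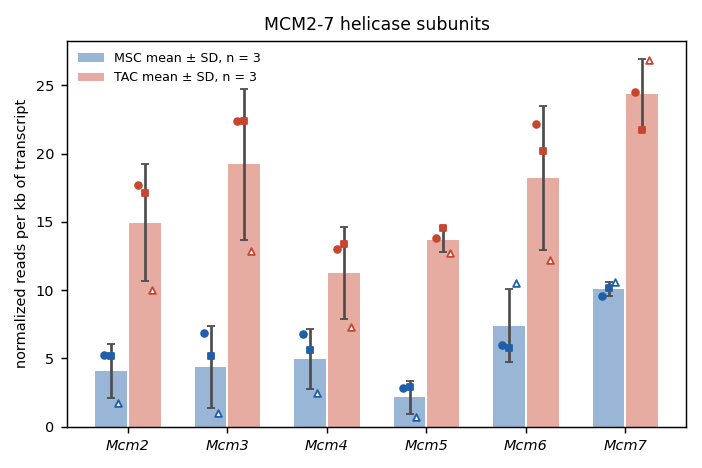
Normalised value per kilobase of transcript for the 6 helicase subunits, with MSC in blue and TAC in red, bars for the mean, error bars for the SD (n = 3) and a circle, a square and an open triangle for replicates 1, 2 and 3. Mcm7 was the highest subunit in all libraries except TAC replicate 2, where Mcm3 was, and Mcm5 was the lowest subunit in all 3 MSC libraries while Mcm4 was in all 3 TAC libraries.

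Firing genes had a median log2 fold change of 1.58, which was 0.88 in replicates 1 and 2 and 0.96 in replicate 3 taken alone, and 3 of 7 had an unadjusted p under 0.05. Mcm10, which helps to activate the loaded helicase, gave 3.25 and 5.48 in MSC replicates 1 and 2, no read in MSC replicate 3, and 23.2, 26.6 and 9.86 in TAC. All TAC values lay above all MSC values, with a log2 fold change of 2.68, an SE of 0.79 and an adjusted p of 0.241. Ticrr, which recruits firing factors to origins, gave 7.09 and 4.38 in MSC replicates 1 and 2, no read in MSC replicate 3, and 22.1, 25.2 and 10.8 in TAC. Cdc45, a part of the active helicase, gave 3.17, 2.12 and 1.98 in MSC and 10.6, 14.4 and 4.81 in TAC.

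The 4 GINS genes, whose products form 1 complex with Cdc45 and the ring, stood lower in this comparison, with a median log2 fold change of 0.41 (0.76 in replicates 1 and 2, -0.20 in replicate 3) and 0 of 4 past the unadjusted threshold in limma or with the replicate block. Gins3 gave 3.25, 4.38 and 16.4 in MSC and 5.80, 6.04 and 14.3 in TAC, and had a log2 fold change of 0.29, an SE of 0.67 and an adjusted p of 0.920. Gins1 gave 1.49, 1.54 and 12.1 in MSC and 3.92, 3.36 and 6.64 in TAC, and had a log2 fold change of 0.33, an SE of 0.77 and an adjusted p of 0.921. Gins2 gave 11.0, 10.9 and 53.8 in MSC and 23.5, 18.2 and 46.0 in TAC, and had a log2 fold change of 0.50, an SE of 0.67 and an adjusted p of 0.840. Its log2 fold change was 0.13 to 1.23 when single libraries were left out. In these 3 genes the MSC and TAC values of replicate 3 were higher than those of replicates 1 and 2 of the same group, and MSC replicate 3 was above TAC replicate 3. Gins4 gave 6.56 and 7.65 in MSC replicates 1 and 2, no read in MSC replicate 3, and 10.8, 12.9 and 13.0 in TAC, so that it alone of the 4 had groups that did not overlap. Exon bases of Gins2 are shared with Gse1 on the opposite strand over 2758 bases, and the use of strand in counting is not stated.

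Polymerase and primase genes had a median log2 fold change of 0.96 (0.96 in replicates 1 and 2, 0.94 in replicate 3), and 1 of 6, Pola2, had an unadjusted p under 0.05, against 4 of 6 with the replicate block. Pole, the catalytic subunit of polymerase epsilon, gave 21.9 and 19.0 in MSC replicates 1 and 2, no read in MSC replicate 3, and 57.6, 51.1 and 31.8 in TAC. The log2 fold change was 2.59 with an SE of 1.14 and an adjusted p of 0.438, with MSC replicate 3 far from the other MSC libraries. It was 1.37 in replicates 1 and 2, and 1.12 to 3.37 when single libraries were left out. Pola1, the catalytic subunit of polymerase alpha, gave 29.5, 22.9 and 9.51 in MSC and 44.4, 45.4 and 5.82 in TAC. The groups of Pola1 overlapped, with a log2 fold change of 0.30, an SE of 0.81 and an adjusted p of 0.936. Pola2, its accessory subunit, gave 11.5, 11.99 and 5.47 in MSC and 22.7, 23.7 and 17.004 in TAC, with no overlap.

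The primase subunits Prim1 and Prim2 did not overlap between groups either. Prim1 gave 7.09, 7.56 and 14.5 in MSC and 16.2, 14.9 and 18.8 in TAC, a gap of less than 1 unit between MSC replicate 3 and TAC replicate 2. Prim2 gave 8.29 and 6.75 in MSC replicates 1 and 2, no read in MSC replicate 3, and 12.6, 14.2 and 12.4 in TAC. Pold1, the catalytic subunit of polymerase delta, gave 13.8, 19.1 and 34.8 in MSC and 35.7, 32.4 and 46.2 in TAC, and its groups overlapped.

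Clamp, loader and single-strand binding genes had a median log2 fold change of 0.72, which was 1.03 in replicates 1 and 2 and 0.09 in replicate 3, and 1 of 7, Rpa1, had an unadjusted p under 0.05, against 2 of 7 with the replicate block. Rpa1, the large subunit of the protein that coats single-stranded DNA, was even within groups, with 13.8, 14.5 and 11.9 in MSC and 29.1, 34.3 and 36.2 in TAC. Its log2 fold change was 1.25 with an SE of 0.29 and an adjusted p of 0.148. Rpa2, its middle subunit, gave 6.56, 5.77 and 11.5 in MSC and 15.2, 12.1 and 12.3 in TAC. Pcna, the sliding clamp, gave 9.13, 10.5 and 37.6 in MSC and 33.7, 29.6 and 43.7 in TAC, where MSC replicate 3 lay above TAC replicates 1 and 2.

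None of the 4 clamp loader genes had groups that did not overlap, and their median log2 fold change was 0.56 (0.79 in replicates 1 and 2, -0.20 in replicate 3). Rfc2 gave 8.90, 14.5 and 39.1 in MSC and 17.4, 17.3 and 37.1 in TAC, and had a log2 fold change of 0.35, an SE of 0.58 and an adjusted p of 0.881. Rfc4 gave 1.70, 1.61 and 6.92 in MSC and 6.57, 4.86 and 3.65 in TAC, and had a log2 fold change of 0.63, an SE of 0.62 and an adjusted p of 0.754. Rfc5 gave 7.71, 10.9 and 28.8 in MSC and 18.3, 18.0 and 22.7 in TAC, and had a log2 fold change of 0.50, an SE of 0.50 and an adjusted p of 0.759. In all 3 genes MSC replicate 3 was above TAC replicate 3, while in replicates 1 and 2 both TAC values were above both MSC values. Rfc3 gave 2.74, 3.80 and 5.84 in MSC and 5.76, 5.71 and 15.4 in TAC, with MSC replicate 3 just above TAC replicates 1 and 2.

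The 3 Okazaki fragment genes had a median log2 fold change of 2.51, which was 1.31 in replicates 1 and 2 and 3.86 in replicate 3, and 2 of 3 had an unadjusted p under 0.05, or 3 of 3 with the replicate block. Lig1, the ligase that seals the fragments, gave 34.0 and 33.6 in MSC replicates 1 and 2, no read in MSC replicate 3, and 90.0, 81.3 and 43.0 in TAC. Its log2 fold change of 2.69 was the largest of the 39 genes, with an SE of 1.31 and an adjusted p of 0.483, and it was 1.31 in replicates 1 and 2. It was 0.99 to 3.55 when single libraries were left out. Fen1, the flap nuclease, gave 5.98, 4.49 and 0.746 in MSC and 19.8, 22.3 and 24.4 in TAC, with no overlap. Dna2, a nuclease and helicase that trims long flaps, gave 4.69, 4.61 and 5.27 in MSC and 11.9, 10.8 and 11.3 in TAC, and had a log2 fold change of 1.07, an SE of 0.39 and an adjusted p of 0.344. Dna2 differed little between the library sets, with a log2 fold change of 1.13 in replicates 1 and 2 and 0.97 in replicate 3.

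Fork protection genes were higher in TAC in all libraries, with a median log2 fold change of 1.83 (1.76 in replicates 1 and 2, 3.03 in replicate 3) and 2 of 3 past the unadjusted threshold, or 3 of 3 with the replicate block. Clspn, which encodes claspin, an adaptor of the checkpoint kinase at stalled forks, gave 12.6, 12.4 and 0.0133 in MSC, the last resting on 1 read, and 40.9, 48.9 and 13.3 in TAC. Its log2 fold change was 2.45 with an SE of 1.06 and an adjusted p of 0.431, and it was 1.76 in replicates 1 and 2 and 1.20 to 3.07 when single libraries were left out. Timeless, which keeps the helicase and polymerases together, gave 22.9, 22.1 and 5.35 in MSC and 56.0, 52.6 and 50.9 in TAC. Wdhd1, which links polymerase alpha to the helicase, gave 7.51, 6.29 and 20.2 in MSC and 29.6, 29.8 and 32.3 in TAC, and had a log2 fold change of 1.53, an SE of 0.46 and an adjusted p of 0.2499.

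Both chromatin assembly genes, subunits of the complex that deposits histones behind the fork, had groups that did not overlap and an unadjusted p under 0.05. Chaf1b gave 2.32, 2.17 and 0.333 in MSC and 12.4, 12.2 and 10.5 in TAC, and had a log2 fold change of 2.40, an SE of 0.55 and an adjusted p of 0.148. Chaf1a gave 20.2, 18.8 and 7.90 in MSC and 54.0, 57.5 and 25.0 in TAC, and had a log2 fold change of 1.495, an SE of 0.48 and an adjusted p of 0.284. In GENCODE the exons of Chaf1a share 4648 bases with Ubxn6 on the opposite strand. In all, 15 of the 39 genes share exon bases with a gene on the opposite strand, among them Fen1 with Gm10143 over 1909 bases and Rfc2 with Lat2 over 952 bases, and reads from such partners cannot be told apart without strand.

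The replication genes differed between the library sets in size and, for some, in direction. In replicates 1 and 2, both TAC values lay above both MSC values in 39 of 39 genes, against 33.4% of all genes tested, with a median log2 fold change of 1.23. In replicate 3, the TAC library was above the MSC library in 32 of 39, against 52.3% of all genes, and at least 2-fold above it as a plain ratio of normalised values, the 8 genes with no read in MSC replicate 3 included, in 25, against 33.8%. On the log2(value + 1) scale the median in replicate 3 was 1.32. The medians of the sets were thus close, while the range was far wider in replicate 3, from -0.77 for Gins1 to 5.45 for Lig1, than in replicates 1 and 2, where it ran from 0.53 for Gins3 to 2.30 for Mcm10. The difference between the sets passed the adjusted threshold of the interaction in 23 of 39 genes, about the share of all genes tested, 57.2%. In 5 of the 39 the signs of the sets were also opposite, against 27.8% of all genes.

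In replicate 3 the 7 genes with the lower value in TAC were Gins1, Gins2, Gins3, Pola1, Rfc2, Rfc4 and Rfc5, which are 3 of the 4 GINS genes, 3 of the 4 clamp loader genes and the catalytic subunit of polymerase alpha. In MSC replicate 3, 8 of 39 genes had no read, close to the 21% of all genes tested: Orc1, Cdc6, Mcm10, Gins4, Ticrr, Prim2, Pole and Lig1. MSC replicate 3 lay above both other MSC libraries in 16 genes and below both in 23. Among all 15391 genes tested, it was above both in 5586 and below both in 9111. Across the 39 genes the difference of MSC replicate 3 from replicates 1 and 2 fell with transcript length, with a Pearson r of -0.38 and a Spearman rho of -0.35 (n = 39 genes of the same libraries, not independent replicates), and across 12791 protein-coding genes r was -0.29. TAC replicate 3 showed the same relation to TAC replicates 1 and 2, with an r of -0.42 and a rho of -0.42 across the 39 genes and an r of -0.35 across the protein-coding genes. The log2 fold change of TAC over MSC itself had an r with length of 0.29 in replicate 3 and 0.25 in replicates 1 and 2 across the 39 genes, and of -0.04 and -0.18 across the protein-coding genes.

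**Figure D4:**
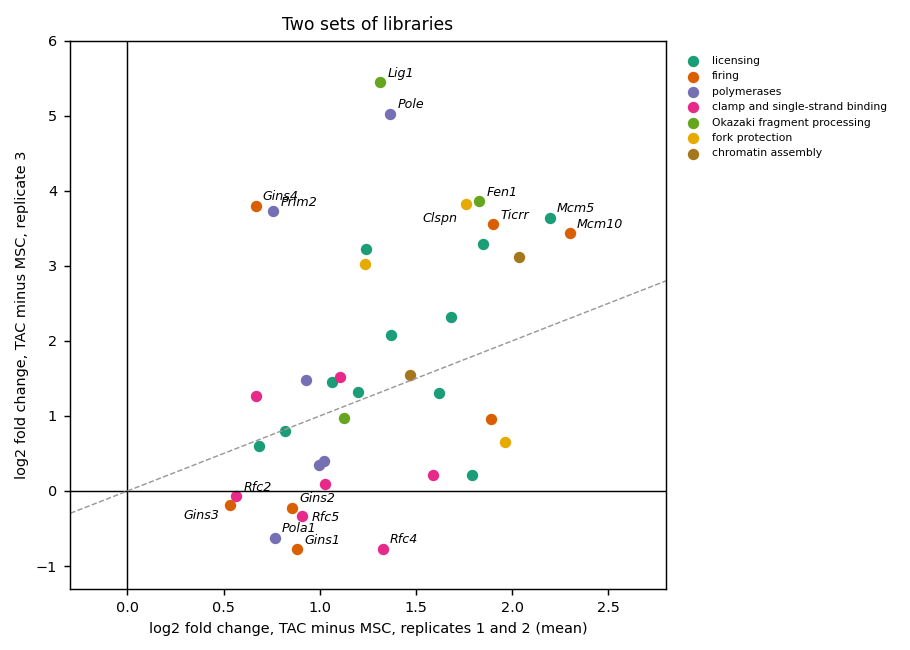
Log2 fold change of TAC over MSC in replicates 1 and 2 (horizontal axis) against that in replicate 3 (vertical axis) for each of the 39 genes, coloured by step, with a dashed line where both are equal. All 39 lie to the right of 0, and 7 lie below 0 in replicate 3, while Lig1 and Pole reach 5.45 and 5.03 there.

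Promoter sequences were searched for short E2F-type motifs, since E2F factors are known regulators of this gene group. RefSeq windows on GRCm38.p6, from 250 bases before to 50 after the transcript start, were at hand for 31 of the 39 genes. Those without a window were Gmnn, Mcm4, Gins1, Gins2, Gins4, Prim2, Pole and Rfc2. Any of TTTCGCGC, TTTGGCGC, TTCCCGCC and TTTCCCGC, on either strand and with overlaps among them allowed, was present in 16 of 31 genes (51.6%), beside 4% of 27025 genes with a window and 7.53% of the 10387 of these that were tested here. The 250 bases before the start are shown for 4 genes that span the range of fold changes, Mcm5 at 2.68, Chaf1a at 1.495, Mcm6 at 1.27 and Pola1 at 0.30, each read 5′ to 3′ on the strand of the gene, with the motif matches in capitals.
Mcm5, chr8:75109259-75109508, plus strand: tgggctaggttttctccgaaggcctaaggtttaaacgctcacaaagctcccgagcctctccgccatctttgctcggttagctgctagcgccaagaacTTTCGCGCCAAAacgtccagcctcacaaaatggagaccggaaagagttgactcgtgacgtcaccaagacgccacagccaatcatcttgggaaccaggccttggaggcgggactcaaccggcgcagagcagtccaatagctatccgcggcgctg
Mcm6, chr1:128359706-128359955, minus strand: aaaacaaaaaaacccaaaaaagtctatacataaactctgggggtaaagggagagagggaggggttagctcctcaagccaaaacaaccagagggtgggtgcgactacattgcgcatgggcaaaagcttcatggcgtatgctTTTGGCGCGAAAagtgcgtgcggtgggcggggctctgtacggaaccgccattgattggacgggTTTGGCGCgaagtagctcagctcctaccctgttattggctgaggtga
Chaf1a, chr17:56040166-56040415, plus strand: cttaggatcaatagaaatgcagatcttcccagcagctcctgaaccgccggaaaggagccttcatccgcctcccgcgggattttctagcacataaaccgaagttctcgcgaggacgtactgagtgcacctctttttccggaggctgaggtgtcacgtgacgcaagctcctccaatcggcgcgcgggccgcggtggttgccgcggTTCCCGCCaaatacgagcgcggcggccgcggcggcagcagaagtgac
Pola1, chrX:93632156-93632405, minus strand: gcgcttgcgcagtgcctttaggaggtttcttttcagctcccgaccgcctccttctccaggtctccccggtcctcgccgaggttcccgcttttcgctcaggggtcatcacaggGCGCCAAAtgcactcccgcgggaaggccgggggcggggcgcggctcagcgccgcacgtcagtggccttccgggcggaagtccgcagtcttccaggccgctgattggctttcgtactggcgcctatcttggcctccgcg

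In Mcm5 the matches to TTTCGCGC and to the reverse complement of TTTGGCGC overlapped, and in Mcm6 the same pair overlapped in the other orientation with a further TTTGGCGC nearer the start. Motif presence did not order the fold changes within the 31 genes, with a median log2 fold change of 1.25 in those with a match and 1.53 in those without. CCAAT, on either strand, was present in 19 of 31 (61.3%), beside 42.8% of tested genes, and TTTGAA, a core of the cell cycle element found in many mitotic gene promoters, in 4 of 31 (12.9%), beside 14.2%. Among 20 mitotic genes with a window, the E2F-type motifs were present in 1 (5%) and TTTGAA in 14 (70%). The E2F-type motifs were present in 12 of 30 (40%) other replication genes with a window and in 1 of 10 (10%) nucleotide supply genes. A match describes letters in these windows and was not tested for binding.

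Of 36 other genes of the replication pathway, 12 were higher in TAC at an unadjusted p under 0.05 (15 with the replicate block), 0 were lower, and 0 passed the adjusted threshold in limma. Without TAC replicate 1 or TAC replicate 2 the unadjusted count was 6 or 7, and without MSC replicate 3 the adjusted count was 2. Their median log2 fold change was 0.87 (0.72 in replicates 1 and 2, 1.12 in replicate 3), 33 of 36 were above 0, and the groups did not overlap in 18. The largest differences were those of Dtl, part of the ubiquitin ligase that destroys Cdt1, at 3.05, Dbf4, the activator of the firing kinase Cdc7, at 2.799, and Mms22l, which acts at damaged forks, at 2.31. These 3 genes had no read in MSC replicate 3, and in replicates 1 and 2 they stood at 2.04, 1.98 and 1.91. The smallest were Pold4, a subunit of polymerase delta, at -0.16, Orc3 at -0.05 and Donson at -0.02. Among origin recognition subunits Orc2 stood at 1.31, with no read in MSC replicate 3 and 0.64 in replicates 1 and 2, Orc5 at 0.58 and Orc4 at 0.10. With the replicate block 1 of the 36, the histone chaperone gene Nasp, passed the adjusted threshold, with an adjusted p of 0.048. Mki67, a proliferation marker, gave 137, 130 and 41.5 in MSC and 593, 630 and 122 in TAC, with an adjusted p of 0.361, or 0.0442 with the replicate block.

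Mitotic genes gave a comparison from the other end of the cell cycle. Of 26 such genes, 22 were higher in TAC at an unadjusted p under 0.05 and 1, the mitotic kinase gene Cdk1, passed the adjusted threshold. With the replicate block 24 passed the unadjusted threshold and 3 the adjusted one, Cdk1, Birc5 and Tpx2. Their median log2 fold change was 2.21, where that of the 39 replication genes was 1.27. These medians were 2.11 and 1.23 when only replicates 1 and 2 were taken, and 2.36 and 1.32 when only replicate 3 was. The difference between the lists was not tested.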

How the data were processed

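RNA from 3 MSC and 3 TAC samples was sequenced. Per the submitters' processing notes, CASAVA 1.8.2, TopHat2 2.0.8, Partek and build mm10 were used. The methods name RPKM, but the deposited values are a signal for which the authors, as the values show, took estimated reads plus 1 and scaled each library by 1 factor, without gene length. Estimated reads were recovered as the value over the lowest value of its library, minus 1. Only 61.2% to 71.4% of low values came out whole within 0.01 reads, so no count model was the main test. Depth per library is given in the report and limits precision.

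limma 3.58.1 in R 4.3.3 was fitted to log2(value + 1) of 15391 genes (mean of 1 or more over the 6 samples), with an empirical Bayes trend and Benjamini-Hochberg adjustment over all of these, two-sided, for TAC minus MSC. Fold changes of low genes are understated by the pseudocount of 1. Although the design was planned for RPKM, its log-scale test also suits this unit. The libraries of a group differed beyond counting noise, so none was treated as a repeat deposit of another, which does not show that they came from separate mice. Replicates 1 and 2 were close, with a Pearson r of log2 values of 0.980 in MSC and 0.988 in TAC. Their r with replicate 3 was 0.658 to 0.660 in MSC and 0.775 to 0.776 in TAC. Tests on replicates 1 and 2 alone, and the interaction, take their error from these close pairs. Samples of the same replicate number deviated together (r = 0.477, 0.465 and 0.517), which pairs them by the rule used here. Crossing replicates 1 and 2 between the groups gave similar values, 0.462 and 0.4804. The check thus sets replicate 3 apart but cannot tell which of replicates 1 and 2 belong together. The numbers come from the labels, and the block is given where it changes a count of calls or a call of a named gene.

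Full statistics are given for the members with the highest and lowest fold change of each step and for those whose sign differed between replicates 1 and 2 and replicate 3. Members with an adjusted call would also have been given. Mcm2 is given for its call with the replicate block, and Mcm7 was chosen after its values were seen. The members and lists were chosen with earlier results of these data known. Alternatives changed the pseudocount, filter, scaling, variance model, batch term and samples. Counts of genes whose groups do not overlap, recomputed without single libraries, were chosen after seeing the data. Transcript length is the exonic length of the GENCODE M21 transcript with the longest coding sequence. Deposited coordinates were matched to GENCODE after the end was lowered by 1, which gave the same span for 90.6% of the matched symbols and for 37 of 39 members. One gene of the planned cell type markers is not reported here and was left out of its list.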

Additional observations from a re-analysis of the deposited data

Results flagged for a closer look

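For 5 of the 39 genes the TAC over MSC difference had opposite signs in replicate 3 and in replicates 1 and 2, with an interaction past the adjusted threshold in limma. Gins1 gave a log2 fold change of -0.77 in replicate 3 and 0.88 in replicates 1 and 2 (adjusted p of the interaction 0.00562). Gins2 gave -0.22 and 0.86 (0.00491), and Pola1 gave -0.62 and 0.77 (0.00162). Rfc4 gave -0.77 and 1.33 (0.00253), and Rfc5 gave -0.33 and 0.91 (0.00663). Replicate 3 rests on 1 library per group, and its interaction assumes that these vary like replicates 1 and 2. Among all genes tested, 27.8% had opposite signs with such an interaction. The cause was not tested.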

How the results depend on the processing

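All 39 genes were above 0 in the main result, and 32 of 39 were so in each alternative run. Of the 39 genes, 0 passed the adjusted threshold in the main result. The count was 1 under quantile scaling (Mcm5, adjusted p 0.0365, beside 0.138% of all genes), 1 with the replicate block, 20 with a batch term for replicate 3 (beside 5.22% of all genes called higher in TAC), 38 in replicates 1 and 2 alone (beside 21.4%), and 0 to 7 without single libraries. The unadjusted count of 20 became 31 with the batch term (beside 14.2% of all genes), 39 in replicates 1 and 2 alone (24.1%), 12 with replicates 1 and 2 averaged (1.82%), and 12 to 31 without single libraries. For other replication genes the unadjusted count of 12 became 24, 30 and 6 in the same alternatives and 6 to 16 without single libraries. Tests on replicates 1 and 2 alone take their error from pairs of libraries that were close to each other. The median of 1.27 was 1.35 with a pseudocount of 0.25, 0.96 with 5, 1.497 in voom and 1.16 to 1.49 without single libraries. The count of genes whose groups did not overlap was 39 in replicates 1 and 2 alone and 27 to 37 without single libraries, beside 13.9% to 23.5% of all genes. It was 37 without MSC replicate 3, beside 20.5%.

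The sign turned for 7 genes. In replicate 3 alone, log2 fold changes were -0.77 for Gins1, -0.22 for Gins2, -0.18 for Gins3, -0.62 for Pola1, -0.073 for Rfc2, -0.77 for Rfc4 and -0.33 for Rfc5. In voom they were -0.45 for Gins1, -0.082 for Gins3 and -0.38 for Rfc4. Without single libraries they ran from -0.073 to 1.12 for Gins1, from -0.10 to 0.92 for Gins3, from -0.16 to 1.22 for Pola1 and from -0.091 to 0.92 for Rfc2. They were below 0 without MSC replicate 1 or 2 for Gins1, without MSC replicate 1 or TAC replicate 3 for Gins3, without MSC replicate 3 or TAC replicate 1 or 2 for Pola1, and without MSC replicate 1 for Rfc2. The cause was not tested. The replicate block changed no other call of the 39 genes at the adjusted threshold. Where MSC replicate 3 had no read, the fold change depends on the pseudocount.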

Other observations

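The 11 genes that supply nucleotides for DNA synthesis were higher in TAC in the same direction as the replication genes, with a median log2 fold change of 1.86 and a range of 1.24 to 2.62. Of these, 7 had an unadjusted p under 0.05 (10 with the replicate block), 0 passed the adjusted threshold in limma, and 10 had groups that did not overlap. In replicate 3 all 11 were at least 2-fold higher in TAC as a ratio of values, 3 of them with no read in MSC, with a median log2 fold change of 2.55, and in replicates 1 and 2 the median was 1.36.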
